A study of Drosophila melanogaster with 3 samples.

Results

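The genes described here were protein-coding genes of Drosophila melanogaster whose bodies, from annotated start to end, held at least 6 summits of the authors' optimal list of vri-GFP binding peaks. They were selected on those peak counts, so the counts, the densities made from them and the signal of the peaks are given as description with no test. Of 13945 protein-coding genes on the 6 chromosome arms, 296 (2.12%) met the rule, whereas 2627 (18.8%) held at least 1 summit. The 296 genes held 2780 of the 9264 optimal summits, which is 30.0%, a share that follows in part from the rule.

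Chromatin immunoprecipitation and sequencing (ChIP-seq) had been done on whole white prepupae, males and females pooled, of a transgenic line stably expressing vri with GFP at the C terminus, with anti-GFP antibody. The 3 biological replicates all belong to this 1 group, so no comparison between conditions was possible. The promoter that drives the fusion and the state of the native vri gene are not stated in the labels, and no mock or untagged library was analysed here. Because whole animals were used, a peak present in every tissue and a peak present in a few tissues cannot be told apart.

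Vrille (vri) is a basic leucine zipper (bZIP) transcription factor best known from the circadian clock, where it represses transcription of Clock through a sequence, the VP box, that it shares with the activator Pdp1. It was also found through its genetic interaction with the Dpp pathway and is needed for growth and for hair formation in the wing. The white prepupa marks the start of metamorphosis, when a pulse of the steroid ecdysone activates its receptor and a cascade of early genes, most of them transcription factors, in nearly all tissues.

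Summits with a VP box are printed first because they show the known recognition sequence in its context in these genes. The VP box was searched as TTACGTAA or TTATGTAA on both strands, so that TTACATAA, the reverse complement of the second form, also counts. It lay within 50 bp of 67 of the 2780 summits (2.41%), and 67 of the 296 genes had at least 1 such summit. Over all optimal summits it lay at 217 of 9264, and a gene with more summits has more chances to hold one. The 101 bp windows below are centred on the summit, read 5′ to 3′ on the plus strand of the RefSeq copy of assembly dm6, with the VP box in capitals. They are the VP box windows of highest signal in the member genes among those free of annotated exons and on the chromosome arms from which sequence is shown here (1 arm is left out), followed by that of Eip75B, the gene with the most summits.
tara (chr3R:16242615-16242715): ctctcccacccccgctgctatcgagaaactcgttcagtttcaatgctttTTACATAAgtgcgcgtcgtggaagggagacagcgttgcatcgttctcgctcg
Glut4EF and CG46467 (chr3R:9928653-9928753): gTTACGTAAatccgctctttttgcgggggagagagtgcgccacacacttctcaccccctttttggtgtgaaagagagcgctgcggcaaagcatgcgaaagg
CG3726 (chrX:5918871-5918971): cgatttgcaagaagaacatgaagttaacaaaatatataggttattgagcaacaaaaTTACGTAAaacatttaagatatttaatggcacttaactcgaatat
sesB and Ant2 (chrX:10783739-10783839): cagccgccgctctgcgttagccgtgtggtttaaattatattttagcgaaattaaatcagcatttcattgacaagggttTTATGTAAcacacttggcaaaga
CG32369 (chr3L:7804794-7804894): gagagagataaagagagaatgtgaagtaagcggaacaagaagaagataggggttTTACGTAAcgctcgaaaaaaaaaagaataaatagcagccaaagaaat
rdx (chr3R:13976175-13976275): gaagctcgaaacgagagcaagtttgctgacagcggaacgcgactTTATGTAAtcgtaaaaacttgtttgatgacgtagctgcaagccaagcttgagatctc
bun (chr2L:12483924-12484024): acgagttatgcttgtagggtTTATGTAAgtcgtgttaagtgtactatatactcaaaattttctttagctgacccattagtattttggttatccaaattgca
Argk1 (chr3L:9057863-9057963): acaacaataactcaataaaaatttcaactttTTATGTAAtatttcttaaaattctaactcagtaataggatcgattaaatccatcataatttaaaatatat
Eip75B (chr3L:17963745-17963845): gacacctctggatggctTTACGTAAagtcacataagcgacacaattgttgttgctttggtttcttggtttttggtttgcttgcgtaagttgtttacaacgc

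The box covered the summit base in tara, which encodes a SERTA-domain cofactor, and in rdx, which encodes a Cul3 ubiquitin ligase adaptor that acts on Ci. It lay at the 5′ edge of the window in the pair Glut4EF and CG46467. Windows of CG3726, rdx and Eip75B were more than 1 kb from any protein-coding start site, and the others were within 1 kb of a start of a gene that holds them.

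Signal in this text is the authors' signal value of a peak in a replicate divided by the median that the replicate has over all optimal peaks, so 1 is a typical optimal peak. The tara window had a relative signal of 9.50, 7.94 and 7.75 in replicates 1, 2 and 3 (8.39 ± 0.958, mean ± SD, n = 3). That of Glut4EF had 7.46, 9.34 and 7.72 (8.17 ± 1.02). Both stood far above a typical peak in every replicate. The Eip75B window had 1.09, 1.61 and 0.821 (1.18 ± 0.404), so it was close to a typical peak.

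The summits of highest signal in Eip75B, tai and ush, none with a VP box, are printed the same way as examples of the many member summits without one. All lay over 1 kb from a start site, and capitals mark GAGAG, the word recognised by the GAGA factor, which only the Eip75B window holds.
Eip75B, highest summit (chr3L:18011877-18011977): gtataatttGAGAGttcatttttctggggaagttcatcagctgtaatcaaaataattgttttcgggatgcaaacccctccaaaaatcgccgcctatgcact
tai, highest summit (chr2L:9203493-9203593): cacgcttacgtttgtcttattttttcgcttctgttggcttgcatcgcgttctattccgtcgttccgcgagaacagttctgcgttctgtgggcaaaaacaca
ush, highest summit (chr2L:481006-481106): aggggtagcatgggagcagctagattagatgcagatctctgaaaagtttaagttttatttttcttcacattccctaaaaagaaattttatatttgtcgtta

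The member genes were long. Their bodies had a median length of 34.1 kb (quartiles 20.1 and 62.0 kb, range 5.90 to 394 kb), against 2.11 kb for all other protein-coding genes and 6.26 kb for genes with 1 to 5 summits. The share of genes that were members rose with length, from 0 of 10461 genes under 5 kb to 14 of 1507 (0.929%) at 5 to 10 kb, 60 of 964 (6.22%) at 10 to 20 kb, 120 of 706 (17.0%) at 20 to 50 kb, 72 of 224 (32.1%) at 50 to 100 kb and 30 of 83 (36.1%) at 100 kb or more. Among the 1013 genes of at least 20 kb, 222 (21.9%) were members. Not every long gene held peaks, and 27 of the 83 genes of 100 kb or more (32.5%) held no summit at all.

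Summits per member ran from 6 to 46, with a median of 8 and quartiles of 7 and 11. There were 114 members with at least 10 summits, 31 with at least 15 and 16 with at least 20. The median density was 0.262 summits per kb (quartiles 0.175 and 0.431), close to the 0.264 of genes with 1 to 5 summits. Pooled over their bases, the member bodies held 0.200 summits per kb, the bodies of other protein-coding genes, most of which held no summit, 0.0515 and the 6 arms 0.0692. Across the 296 genes, the Spearman rank correlation was 0.487 between length and number of summits and -0.866 between length and density. Density has length as its divisor and the rule sets a lowest count, so the second value follows in part from the rule.

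**Figure D1:**
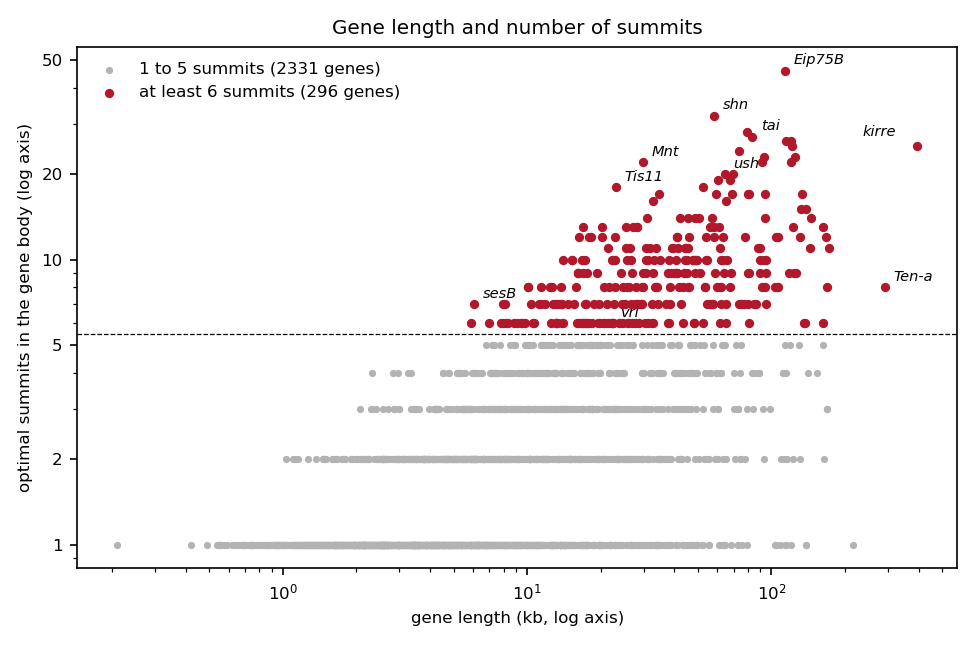
Number of optimal summits in the body against gene length in kb, both on log axes, for the member genes and for genes with 1 to 5 summits, 1 point per gene. Members begin at 6 summits and reach 46 in Eip75B, and the longest, kirre, has 25 summits in 394 kb.

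The gene with the most summits was Eip75B, an early ecdysone-induced gene that encodes a haem-binding nuclear receptor (chr3L:17950953-18064696). It held 46 optimal summits in 114 kb, and each replicate's own 9264 peaks of highest rank placed 48, 54 and 47 there. All replicates thus put more peaks in Eip75B than the optimal list puts in any other gene. Its summits spread along the gene: 39 lay more than 1 kb from every protein-coding start site, called distal here, 7 lay near its own start sites, and 6 of its 7 groups of start sites (starts over 1 kb apart) had a summit within 1 kb. Its highest summit, printed above, was 12106 bp from the nearest start site, with a relative signal of 8.83 ± 0.927 (n = 3) and rank 32 among the 9264.

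Next in the order, the gene shn, which encodes a zinc-finger cofactor of Dpp signalling, held 32 summits in 58.3 kb, with 31, 32 and 32 in the replicates. The nuclear corepressor gene sbb held 28 (25, 25 and 28), and tai, which encodes a coactivator of the ecdysone receptor, held 27 (24, 27 and 23). These counts differed by at most 4 peaks between replicates. The TSC-22 family gene bun held 22 (25, 28 and 23), the zinc-finger gene jing 22 (18, 22 and 21), and ush, the gene of a FOG-family partner of GATA factors, 20 (18, 19 and 18). Mnt, which encodes a repressor partner of Max, packed 22 summits (19, 20 and 21) into 29.9 kb, the shortest body among the 15 genes with the most summits.

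The highest summit of ush, 1368 bp from a start site and printed above, had a relative signal of 17.6 ± 0.957 (n = 3) and had rank 3 among all optimal summits. Rank 2 was the highest summit of vri itself, with 18.3 ± 1.80 (n = 3), although vri stood at the lower limit of the rule with 6 summits (6, 7 and 6 in the replicates) in 22.3 kb. A gene with few summits for this group thus held 1 of the highest.

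Other genes near the top encode proteins with other roles. Svil, which encodes the actin-binding protein supervillin, held 25 summits (24, 23 and 23), 11 of them near its own start sites, and 9 of its 16 groups of start sites had a summit. SNF4Agamma, the gene of the regulatory gamma subunit of the AMP-activated kinase, held 24 (25, 24 and 19), with summits at 7 of 9 groups of start sites. Tet, which encodes a dioxygenase of the TET family, held 23 (22, 21 and 25), and all but 2 of them were distal. CG1677 held 23 (26, 21 and 22). Glut4EF, a zinc-finger gene, and the overlapping CG46467 held the same 26 summits (23 in each replicate), which cannot be assigned to either.

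**Figure D2:**
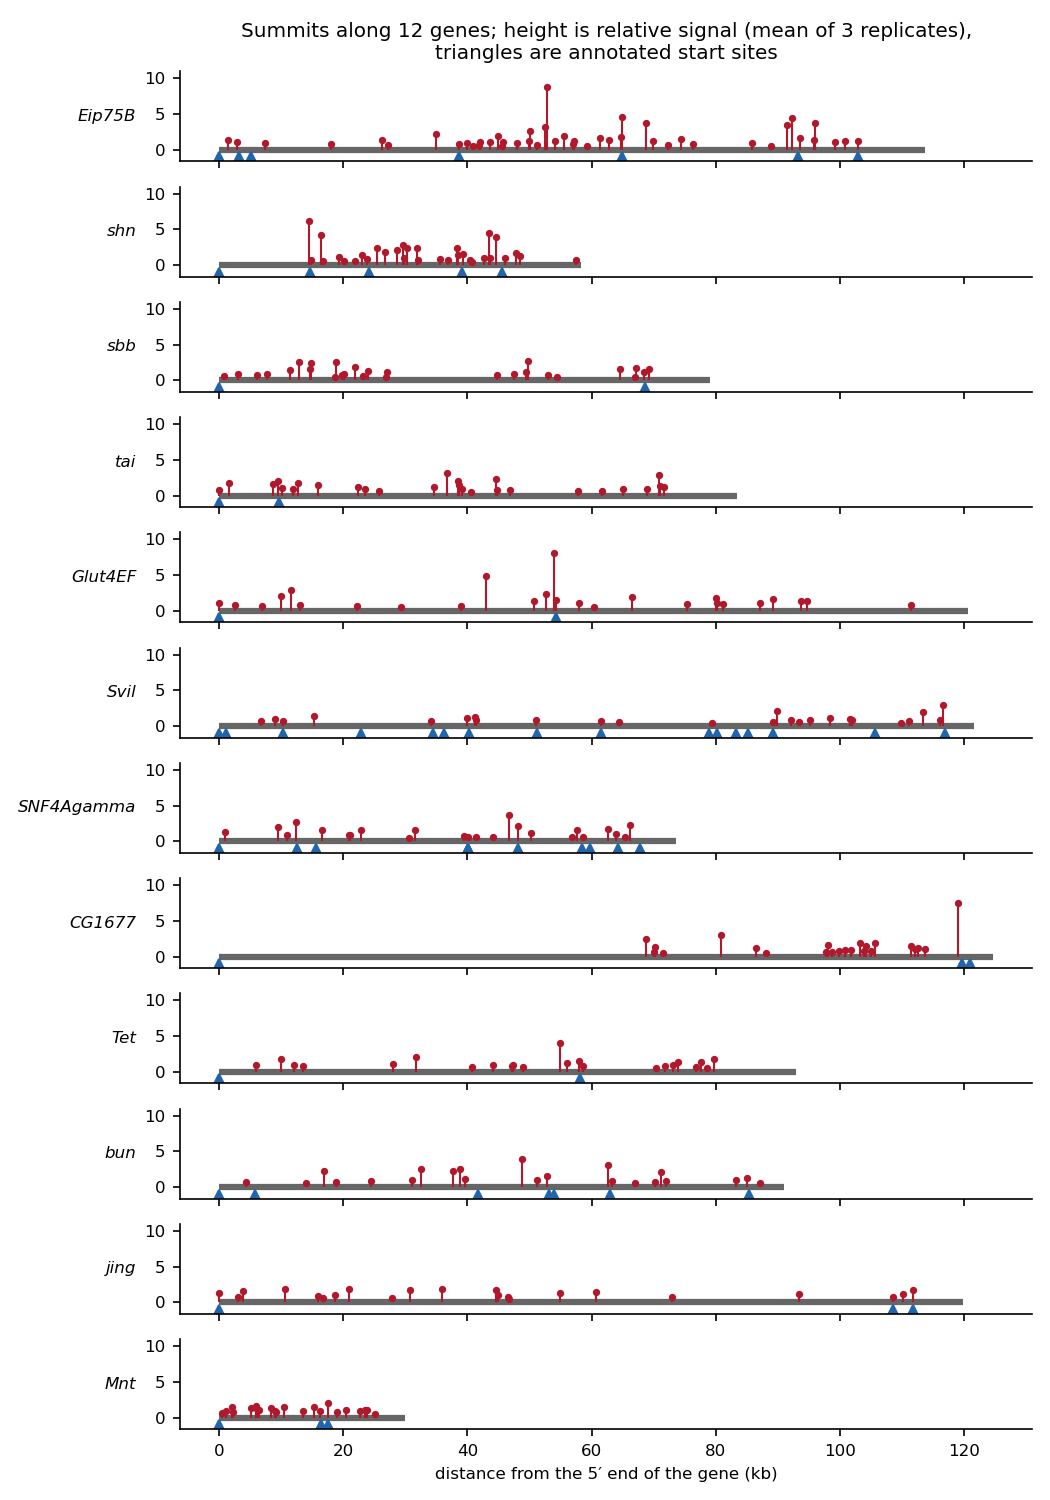
Relative signal of each optimal summit, with the mean over 3 replicates on the vertical axis, against the position along the gene in kb from its 5′ end, for genes with the most summits, with triangles at annotated start sites. Kirre and CG46467, which have as many summits, are left out because of the length of the first and because the second shares all its summits with Glut4EF. Summits of Eip75B and Mnt run along most of the body, whereas those of CG1677 lie in its 3′ part.

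At the other end of the length range, a few short genes were crowded. The highest density was that of sesB, which encodes a mitochondrial ADP/ATP translocase, with 7 summits in 6.07 kb or 1.15 per kb (6, 8 and 5 in the replicates). The overlapping gene Ant2, its paralogue, shares those 7 summits. CG9837 had 1.02 per kb (6 summits, with 6, 5 and 6), Rim2, which encodes a mitochondrial carrier of pyrimidine nucleotides, 0.859 (7, with 6, 6 and 5), and CG12963 0.858 (6, with 5, 5 and 6). In replicate counts, each of these genes fell under 6 at least once. Among longer genes, 12 summits within a single stretch of 10 kb was the most found, in Tis11, which encodes a zinc-finger protein that promotes mRNA decay, and in Rtnl1. Tis11 held 18 summits (17, 14 and 18) in 23.1 kb.

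The longest members had few peaks for their size. Kirre, an immunoglobulin-family gene needed for myoblast fusion, held 25 summits (23, 20 and 27) in 394 kb, and none of them lay within 1 kb of its own start sites. Ten-a, which encodes a teneurin of synapse partner matching, held 8 in 292 kb, the lowest density of any member at 0.0274 per kb, with 7, 3 and 7 in the replicates. The RNA-binding genes pum and heph held 11 (8, 7 and 10) and 8 (5, 7 and 8), and dnc, the gene of a cAMP phosphodiesterase, 12 (13, 8 and 9). Ten-a and heph thus dropped under 6 in 1 replicate each, whereas kirre, pum and dnc did not.

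The replicates were compared through their own lists, each limited to its 9264 entries of highest rank. Genes with at least 6 summits then numbered 299, 320 and 290 (303 ± 15.4, n = 3). Of the 296 members, 262, 260 and 247 reached 6 again, which is 86.6% ± 2.75. In all 3 replicates together, 221 members did so, 43 did in 2, 20 in 1 and 12 in none, while 3 other genes reached 6 in all 3. All 3 replicates had entered the optimal list, so these counts are no independent test. Member summits were overlapped by replicate entries in 90.1%, 86.2% and 88.5% of cases (88.3% ± 1.99), and summits of other gene bodies in 89.7%, 85.2% and 87.4% (87.4% ± 2.25). The share was higher for members in each replicate, by 0.453, 0.987 and 1.01 percentage points. The same summits were scored each time, so these differences are not independent, and they were not tested.

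Relative to its mean count, the range over replicates was widest in Ac13E, an adenylate cyclase gene with 6 optimal summits and 2, 6 and 8 in the replicates. The overlapping waw and bbx shared 8 summits, with 11, 6 and 4. KrT95D had 7 (7, 12 and 5), and sano 6 (3, 2 and 5). Ac13E, waw, bbx and KrT95D thus reached 6 in some replicates only, and sano in none.

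**Figure D3:**
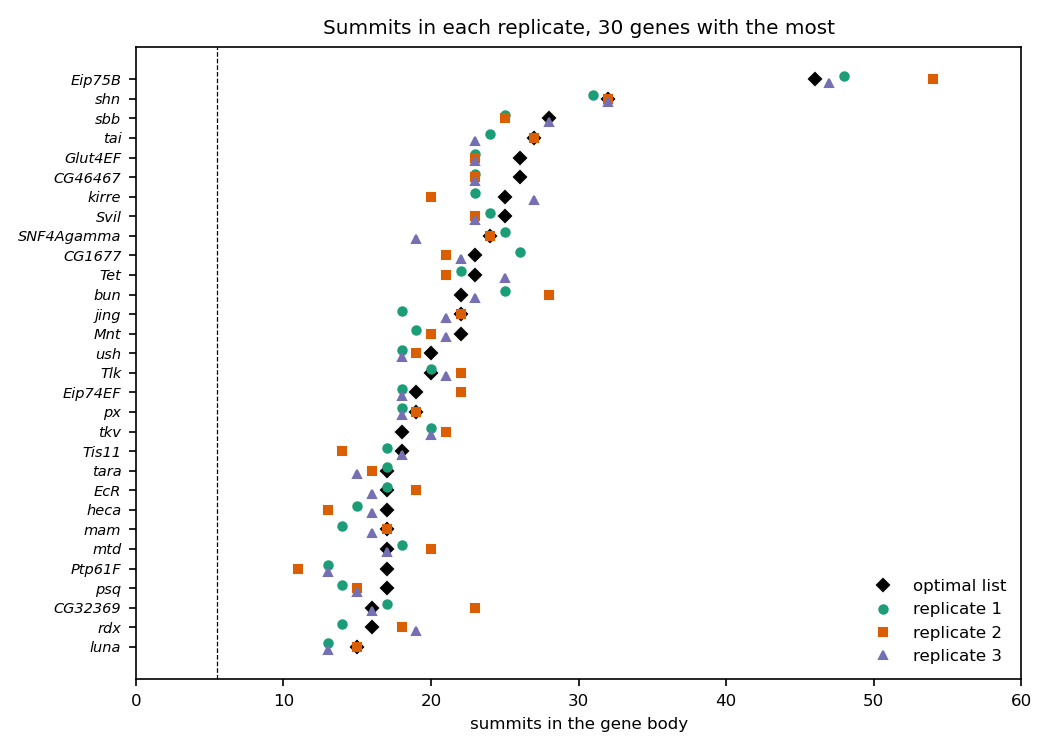
Summits in the body in each replicate's own 9264 peaks of highest rank and in the optimal list, for the 30 genes with the most summits. Replicate points stand close to the optimal count in most of these genes, and Eip75B, with 47 to 54, stands apart from the rest in all 3.

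The limit of 6 divides a continuous series of counts. Exactly 5 summits were found in 102 genes, exactly 6 in 64 and exactly 7 in 49. Just inside the limit, with 6, stood vri, CG14073 (7, 6 and 8), CG9837 and Sin3A, which encodes a histone deacetylase scaffold (6, 9 and 6). Just outside it, with 5, stood CG12054 (7, 7 and 5), the RNA-binding gene larp (5, 5 and 6), Dad, which encodes an inhibitory Smad (5, 6 and 6), and upSET (5, 5 and 6). Of the genes with exactly 6, 18 reached 6 in all 3 replicates, and of those with exactly 5, 2 did.

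Most peaks of these genes were away from starts. Of the 2780 member summits, 1920 (69.1%) were distal, 745 (26.8%, 25.2% to 28.5%) were within 1 kb of a start of a member that holds them, and 115 (4.14%) within 1 kb of a start site of another protein-coding gene. In other gene bodies 40.6% were distal and 56.7% lay at an own start site. Distal member summits were nearly all intronic: 1878 lay in introns, 36 in untranslated exons and 6 in coding exons. In 211 members distal summits outnumbered the rest, and only Myo61F, Ant2, sesB and CG12963 had none. Longer bodies hold more bases far from a start, and the rule favours long bodies, so these shares are given with no test.

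Members had a median of 3 distinct start sites, against 1 in other genes. Their starts fell into 829 groups more than 1 kb apart, of which 569 (68.6%) had a summit within 1 kb, and in 149 members every group had one. Of 223 members with more than 1 group, 169 had summits at more than 1. By contrast, 34 members had no summit in their body within 1 kb of an own start site. With summits outside the body counted too, 19 remained without one, among them kirre, the corepressor gene Smr, the chromatin remodelling gene osa, the Wnt receptor gene fz and the Hox gene Antp.

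The summit of highest signal was distal in 183 members (61.8%), at an own start in 96 (32.4%) and at a start of another gene in 17. Distal member summits had a median relative signal of 0.981 and those at own starts 1.05. Summits in member bodies as a whole had 1.01, those in other bodies 0.992 and those outside bodies 0.949, so peaks of genes with many peaks were of ordinary height. The highest summit of a member had a median of 2.79 (0.729 to 18.3). With the body divided into 5 equal parts from the 5′ end, the parts held 28.8%, 23.3%, 20.7%, 18.2% and 9.04% of the summits. Other genes of at least 20 kb held 37.8%, 20.5%, 19.8%, 15.2% and 6.75%.

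**Figure D4:**
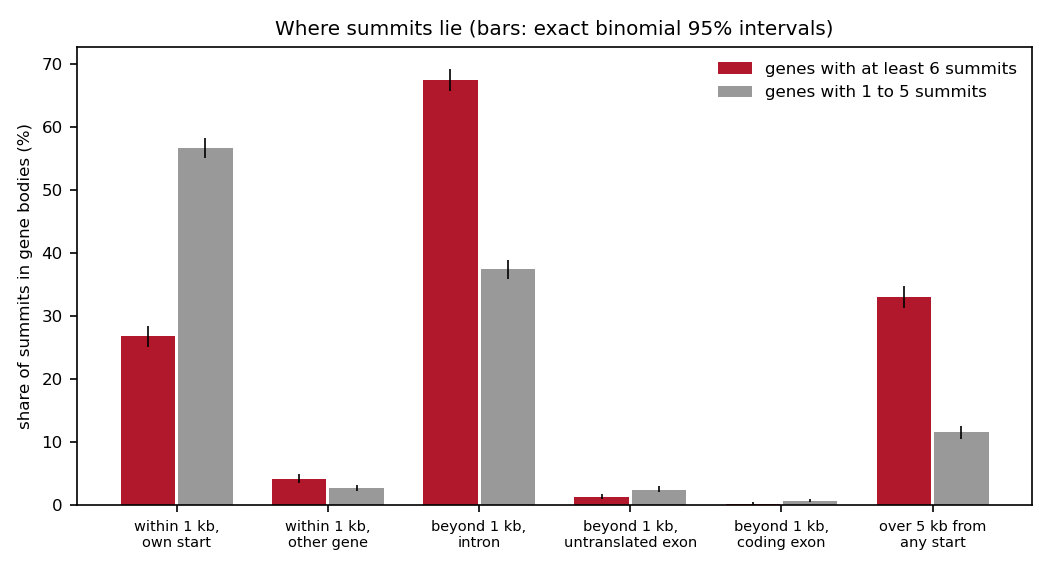
Percent of summits in gene bodies (vertical axis) by position, for member genes and genes with 1 to 5 summits, with exact binomial 95% intervals that treat summits as independent. Classes run from summits within 1 kb of a start of their own gene, or of another gene, to distal summits in introns and exons, and those over 5 kb from any start overlap the distal classes. Distal introns hold 67.6% of member summits and 37.5% of the others, and 33.1% against 11.5% lie over 5 kb from any start.

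Neighbouring summits were close. The median gap within a member was 1660 bp (quartiles 860 and 3855 bp, 2624 gaps), 30.5% of gaps were under 1 kb and 14.0% under 500 bp. Per the labels, fragments were 200 to 800 bp long, so summits across the shortest gaps may not be separate binding sites. Peak intervals of neighbouring summits could overlap, and 51 members had under 6 separate intervals once overlapping ones were merged and 245 kept at least 6. Some summits were also counted for more than 1 gene: 134 (4.82%) lay in more than 1 member body, the 296 genes formed 281 separate loci, and in 22 members every summit lay in another protein-coding body too. Besides Glut4EF and CG46467, such pairs were Su(Tpl) and Mi-2 with 13 shared summits, Fim and CG5445 with 12, and sky and CG43739 with 10. Members were found on the 5 large arms in similar proportion, from 1.97% to 2.55% of their genes, with 58 on 2L, 60 on 2R, 54 on 3L, 68 on 3R and 56 on X, and none of the 80 genes of chromosome 4 was one.

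The functions of the members were described with 18 lists of genes written from textbook knowledge. Of their 546 different symbols, 519 were in the annotation, and the others were left out of the denominators. The lists were written with earlier results of these data known, a gene can stand on several, and 80 members stood on at least 1, 216 on none and 44 had only a CG name. Counts are to be read against 2.12% of all genes and, because listed genes are often long, against 21.9% of the genes of at least 20 kb. The lists do not hold every gene of the family they are named for. The zinc-finger gene jing with 22 summits and Tis11 with 18, for example, stand on none. Shares and rankings are therefore those of the listed genes only.

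The ecdysone response and nuclear receptor list had 13 members among its 35 annotated genes (37.1%), and 12 of its 17 genes of at least 20 kb (70.6%) were members. Besides Eip75B and tai, these were led by Eip74EF, an early gene that encodes an ETS factor, with 19 summits (18, 22 and 18), and EcR, the gene of the ecdysone receptor, with 17 (17, 19 and 16). Chosen after their values were seen, ftz-f1, which encodes the nuclear receptor that gives prepupae competence to respond to ecdysone, held 14 (14, 16 and 12), and br, which encodes the pupal specifier Broad, held 10 (11, 13 and 12), all of them also in Mur2B. Hnf4, named on the same grounds, encodes a nuclear receptor of fat metabolism and held 10 (9, 10 and 10). Replicate counts of all 7 genes stayed at 9 or more.

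Of the genes of at least 20 kb, 4 of 6 on the clock list and 5 of 6 on the bZIP list were members. At any length, the clock list had 5 members of 20 (25%). These were kay, the fly Fos gene, with 13 summits (12, 10 and 10), sgg, which encodes the kinase GSK-3, with 11 (10, 11 and 12), cwo, which encodes a repressor of clock targets, with 8 (6, 9 and 6), Pdp1, which encodes the activator that shares the VP box, with 7 (7, 8 and 8), and vri. The bZIP list overlapped with it and had 6 of 19 (31.6%), adding cnc, the Nrf2 homologue, with 12 (15, 15 and 11), REPTOR, which encodes a factor of the response to TOR inhibition, with 11 (15, 13 and 12), and CrebA, with 6 (6, 9 and 7).

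Among other regulators, the BTB and zinc-finger list had 12 members of 41 (29.3%), and 11 of the 26 long ones (42.3%) were members. It was led by shn, sbb, Mnt and ush. Mnt is a bHLH gene, not a BTB or zinc-finger gene, and was also on the bHLH and Notch list. Its place on the BTB and zinc-finger list was an error, and both shares of that list count it. The bHLH and Notch list had 7 of 24 (29.2%), and 7 of its 11 long genes (63.6%). Among them were bun, Mnt and mam, which encodes the Notch coactivator Mastermind, with 17 summits (14, 17 and 16). Another was sima, the HIF homologue, with 12 (13, 12 and 9). The listed homeodomain, Fox and T-box factors stood lower, with 2 of 42 (4.76%), and 2 of 17 long genes (11.8%), below the 21.9% of all long genes. These were hth, which encodes a Hox cofactor, with 15 (12, 13 and 11), and Antp, with 8 (7, 6 and 6). The forkhead gene CHES-1-like, with 13 in 27.0 kb, and the homeobox gene NK7.1, with 8 in 43.5 kb, are members but not on this list. The low share thus holds for the listed genes only.

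Signalling lists held members at several levels of each pathway. For Dpp and Activin there were 4 of 24 (16.7%): shn, the type I receptor gene tkv with 18 summits (20, 21 and 20), and the glypican genes dlp with 11 (11 in each replicate) and dally with 9 (7, 9 and 9). For EGFR, Ras and receptor tyrosine kinases there were 6 of 30 (20%), led by the kinase gene Raf with 14 (12, 13 and 18), the ETS activator gene pnt with 13 (12, 12 and 13), the ETS repressor gene aop with 10 (11 in each) and the insulin receptor gene InR with 10 (12, 10 and 12). For Wingless and Hedgehog there were 6 of 28 (21.4%), led by the receptor gene fz2 with 14 (15, 14 and 14). None of these named genes fell under 6 in any replicate. Of the genes of at least 20 kb, members were 4 of 7 on the Dpp list, 5 of 13 on the EGFR list and 5 of 9 on the Wingless list.

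JNK, JAK-STAT and immune genes gave 6 of 24 (25%), with the phosphatase gene Ptp61F at 17 summits (13, 11 and 13) and puc, which encodes the JNK phosphatase, at 9 (8, 9 and 9). The insulin, TOR and growth list gave 5 of 23 (21.7%) and the Hippo and planar polarity list 3 of 24 (12.5%). Junction, polarity and matrix genes gave 8 of 35 (22.9%), muscle genes 5 of 26 (19.2%) and RNA-binding proteins 5 of 34 (14.7%). Among genes of at least 20 kb, members were 3 of 4 on the JNK list, 4 of 5 on the insulin list and 3 of 9 (33.3%) on the Hippo list. They were 8 of 17 (47.1%) on the junction list, 5 of 10 (50%) on the muscle list and 5 of 16 (31.25%) on the RNA-binding list. The RNA-binding list was led by shep with 13 (12, 14 and 13), the translational repressor gene brat with 12 (14, 13 and 14) and Syp with 12 (11, 13 and 15).

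The neuronal lists, whose genes were the longest, held few members. They do not hold every neuronal gene: trio with 9 summits and hiw with 8 are members and stand on neither. The shares below are those of the listed genes only. Axon guidance and synapse genes, with a median length of 42.1 kb, had 1 member of 44, Ten-a, which was 1 of 35 long genes (2.86%). The ion channel and neuronal receptor list, with a median of 37.6 kb, had 1 of 44, dnc, which encodes a phosphodiesterase and is itself neither. It was 1 of 32 long genes (3.12%). Both shares lay below the 21.9% of all long genes. At least 1 summit was held by 17 (48.6%) and 8 (25%) of the long genes of these lists, against 601 (59.3%) of all long genes. Lipid and sugar metabolism, with shorter genes, had 1 member of 29, and 0 of its 2 long genes. The member was Lpin, which encodes a phosphatidate phosphatase and held 7 summits (8, 7 and 7), while 79.3% of that list held at least 1 summit.

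**Figure D5:**
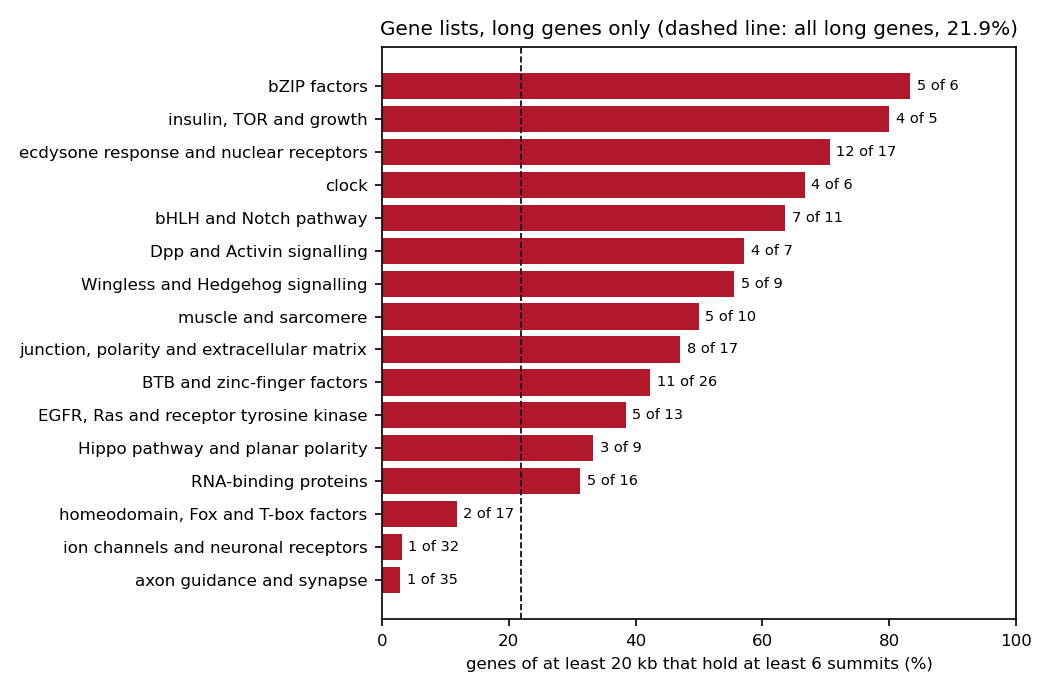
Percent of the genes of at least 20 kb on each list that had at least 6 summits, for lists with at least 5 such genes, with the 21.9% of all such genes as the reference line. The bZIP, insulin and ecdysone lists stand at 70% or more, and axon guidance and ion channel genes at about 3%.

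Letters at the summit did not enter the rule and were tested. The share of summits with a motif within 50 bp was compared between the 2780 member summits and the 3919 summits in other gene bodies by Fisher's exact test, two-sided, with Benjamini-Hochberg adjustment over the 9 motifs searched. Summits of 1 gene share their source and the test treats them as independent, so its p-values are too small. The VP box stood at 67 member summits (2.41%) and at 109 other summits (2.78%), an odds ratio of 0.863 (95% interval 0.624 to 1.19, adjusted p = 0.506, exact test), so no difference was detected, and the interval allows either direction. Windows 400 bp to the side held it in 0.791% of member cases. Genes with several VP box summits were few: 7 members had more than 1, with 3 in rdx (16 summits in all, with 14, 18 and 19 in the replicates) and 2 each in Glut4EF with CG46467, tun, CG3726 and Antp among others.

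DREF sites (TATCGATA) were found at 1 member summit (0.0360%) and at 26 other summits (0.663%), an odds ratio of 0.0539 (0.00131 to 0.328, adjusted p = 0.000124, exact test). The word GAGAG was more frequent at member summits, with 539 (19.4%) against 638 (16.3%), an odds ratio of 1.24 (1.09 to 1.41, adjusted p = 0.00502, exact test). CAGCTG was less frequent, with 127 (4.57%) against 241 (6.15%), an odds ratio of 0.731 (0.581 to 0.915, adjusted p = 0.0164, exact test). With 1 summit per gene, the highest, none of the 3 calls remained, although the odds ratios were no closer to 1. DREF sites were then at 0 of 281 against 20 of 2154 summits (adjusted p = 0.470, exact test), and the odds ratio was 1.40 for GAGAG (adjusted p = 0.350, exact test) and 0.579 for CAGCTG (adjusted p = 0.350, exact test). That setting was added after seeing the data. The windows had a median GC content of 40.6% in members and 41.6% in other bodies.

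Position moves with these shares as well. Among distal summits only, GAGAG had an odds ratio of 1.32 (adjusted p = 0.0303, exact test), CAGCTG 0.944 (adjusted p = 0.738), and DREF sites were at 0 of 1920 member summits, which, taken as a floor of 3 counts, allows a share of up to 0.156% (adjusted p = 0.462). Among summits within 1 kb of a start site, also added after seeing the data, DREF had an odds ratio of 0.112 (adjusted p = 0.0262, exact test), GAGAG 1.43 (adjusted p = 0.00259) and CAGCTG 0.730 (adjusted p = 0.124). Flanks of member summits also held GAGAG more often, in 14.2% against 12.5% for other summits. The remaining motifs did not pass the exact test, with adjusted p from 0.111 to 0.858. These were the C/EBP site (TTACGTAA, TTACGCAA, TTGCGTAA or TTGCGCAA, the first of which is also a VP box) at 2.05% against 2.22%, the CRE (TGACGTCA) at 0.504% against 0.459%, CACGTG at 1.33% against 0.970%, the AP-1 site (TGACTCA or TGAGTCA) at 1.12% against 1.58% and CAGGTAG at 0.216% against 0.536%, all searched on both strands.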

How the data were processed

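ChIP-seq peaks of 3 biological replicates were used in assembly dm6, 1-based. The signal values are the authors' deposited values per peak, not scaled between libraries, and the deposited −log10 q values entered no test. Per the depositors' note files, the replicate and pooled lists (peaks with background) were fed to an irreproducible discovery rate (IDR) step that gave the optimal list. For its threshold, as for the aligner and caller, values were not given in the sources used here. Every replicate list holds 30000 entries. With no read counts in the lists, depth is unknown. Intervals are exact binomial or exact odds-ratio 95% intervals that treat summits as independent.

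Summits were assigned to gene bodies of Ensembl release 115, and a summit in overlapping genes counted for each. Replicate counts used each list's 9264 entries of highest signal. Python 3.11.15, pandas 2.3.3, SciPy 1.17.1 and statsmodels 0.14.6 were used. The counting and the VP box comparison were checked on simulated data. The simulated windows were independent, so the check does not cover summits that share a gene, and the other motifs were not simulated. Members and lists were chosen with earlier results of these data known. Named genes were the 15 with the most summits, the 5 densest, the 5 longest, up to 4 per list, those with most VP boxes or widest replicate spread, those nearest the limit and the 6 longest genes without summits. Genes named for a pattern outside these were chosen after their values were seen. 1 further gene list is not reported here.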

Additional observations from a re-analysis of the deposited data

How the results depend on the processing

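The number of genes with at least 6 summits, 296, moved by over 1.5 times under stricter rules: 86 with only the stronger 50% of the optimal peaks, 105 when every replicate had to cover 50% of the peak, and 168 when every replicate had to overlap it by 1 bp, a setting added after seeing the data. With 1 replicate left out and both others required, it ranged from 194 to 215, and the 194 without replicate 1 was also a move of over 1.5 times. Under the other settings it ranged from 245 with overlapping intervals merged to 355 with bodies extended by 1 kb. The median density of 0.262 per kb became 0.231 with merged intervals, 0.122 with the stronger 50%, and 0.202 to 0.212 with 1 replicate left out. The VP box odds ratio stayed below 1 and was not called in any setting, at 0.679 to 0.979. Odds ratios of uncalled motifs changed direction for the C/EBP site with 1 summit per gene (1.10) and within 1 kb of starts (1.18), for the CRE with 25 bp to each side (0.987), with 1 summit per gene (0.766) and within 1 kb of starts (0.832), and for CACGTG with 1 summit per gene (0.765). The cause was not tested. No paired analysis was possible because there was only 1 group. Depth is unknown, so peaks missed for lack of reads cannot be counted.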

Other observations

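Some of the longest genes had no summit. The 6 longest protein-coding genes without an optimal summit in the body were Myo81F, a myosin gene of 1966 kb, Pzl, a Piezo-like channel gene of 709 kb, lovit of 434 kb, CG17684 of 396 kb, DIP-lambda, an immunoglobulin-family gene of 379 kb, and bru3, an RNA-binding gene of 281 kb. All 6 were also at 0 in each replicate's own 9264 peaks of highest rank. Each of the first 4 was longer than kirre, the longest gene with at least 6 summits, at 394 kb. No read coverage was analysed here, and whether reads can be placed uniquely in these bodies was not tested. A count of 0 is thus a lack of called peaks only.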
